A study of Mus musculus with 2 samples.

Results

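The genes described here are 10 genes of the calcium signal that activates the egg, followed in mature mouse oocytes of 2 maternal ages. Ensembl identifiers of the deposited table were matched to mouse symbols, and all 10 were found among its 36227 genes, 18364 of which have counts. The samples are mature oocytes of ICR mice, shed in natural ovulation and held at the second meiotic metaphase (MII). The young library came from females of 3 months (the control) and the aged library from females of 12 months. Each was 1 pool of 18 oocytes, 3 from each of 6 females, and the labels name no allele or agent in either group. Since an age is a single library, the variation among animals was not measured, no test of age was possible and no p-value is given. The values describe these 2 pools, and every interval covers counting error only, with each read taken as separate.

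At fertilisation the sperm brings a phospholipase C that makes inositol trisphosphate (IP3). IP3 opens receptors on the endoplasmic reticulum, and calcium is released into the egg cytoplasm in repeated waves. Channels of the plasma membrane refill the store, pumps return calcium to the store or expel it, and calmodulin-dependent kinase II (CaMKII) and the phosphatase calcineurin read the signal. In the mouse egg the kinase's action on the inhibitor Emi2 leads to release from MII arrest. The 10 genes cover these roles: Itpr1 (release), Stim1 (store sensor), Orai1, Trpm7 and Cacna1h (entry channels), Atp2a2 and Atp2b1 (pumps), Camk2g and Camk2d (kinase) and Ppp3ca (phosphatase).

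The cDNA was primed with oligo(dT), so a transcript was captured by its poly(A) tail, and the amount of RNA and the length of its tail cannot be told apart in these counts. The poly(A) signal of 6 of the genes is shown because that is the end from which capture began. Each window of 30 bases is written 5′ to 3′ as DNA from the longest protein-coding transcript in GENCODE mouse release M21, with the signal hexamer in capitals:
Itpr1: ctaaaaatatttAATAAAcgatgcagaatc
Trpm7: tctttaaaagaaATTAAAtttattcttgtt
Cacna1h: aaagcaaagctgAATAAAcactaacttatt
Atp2b1: cttaactcatttAATAAAtatactgtttat
Camk2g: ttgaagatatttAATAAAataacctttaaa
Camk2d: gtcatttcattaAATAAAatcctactgact

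All 10 transcripts carried AATAAA or ATTAAA in their last 40 bases, searched on the transcript strand, against 78.9% of 9231 protein-coding genes whose 2 libraries average 20 counts or more. Orai1 and Trpm7 have ATTAAA and the other 8 have AATAAA. The cytoplasmic polyadenylation element TTTTAT, a motif known for the control of tail length in maturing oocytes, was searched on the same strand in the last 100 bases. It occurred once in Atp2a2, beginning 90 bases from the end, and once in Atp2b1, beginning 75 bases from the end. It was found in the same window of 15.9% of the 9231 genes. These matches describe the letters of 1 annotated end per gene, and another end may be used in the oocyte. Camk2d and Camk2g both carry AATAAA, beginning 27 and 23 bases from the end. Whether these ends bear on the counts of the 2 genes was not tested.

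Total counts were 19475110 (young) and 18597656 (aged). Levels are given as CPM, each library's counts scaled to the same total, and a count of 0 allows up to 0.154 CPM (young) and 0.161 CPM (aged). Of 12 oocyte markers 11 were matched, all with at least 20 counts in both libraries, summing to 124507 CPM (young) and 58894 CPM (aged). The unmatched marker, H1f8, is present under its older symbol H1foo, with 1.04e+06 counts (young) and 730820 counts (aged), outside these sums. Most of these sums came from Gdf9, with 97099 CPM (young) and 42795 CPM (aged). Oosp1, Mos, Bmp15, Zp1, Zp2 and Kit were also lower in CPM in the aged library, and Dppa3, Nlrp5, Zp3 and Npm2 were higher. Of 16 cumulus and granulosa cell markers, which would come from cells that surround the oocyte, 9 had a count when young and 7 when aged. Their sums were 29.99 and 64.7 CPM, mostly from Cyp19a1 with 436 and 1056 counts. Vim had 51 and 0 counts, Inha 14 and 0 and Gja1 11 and 0 (young first, as in all pairs below), while Nr5a2 had 38 and 106, Fshr 0 and 16 and Has2 0 and 2. Their part in the results was not tested, and in such pools fewer cells of a type and less RNA per cell cannot be told apart. Of 7 sperm markers, 1 had a count among the young oocytes and 2 among the aged. Prm2 had 548 and 385 counts, 28.1 and 20.7 CPM, and Akap4 had 0 and 3 counts. Plcz1, the sperm phospholipase C, has no count in the table. Of 6 blood markers, Ptprc alone had a count, 1 in the young library.

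The channel gene Trpm7 and the pump gene Atp2b1 were more than 2-fold higher in aged oocytes, though within 2-fold once transcript length and GC content were allowed for. Itpr1, Orai1 and Ppp3ca were higher by less than 2-fold, Camk2g and Cacna1h were lower by less than 2-fold, and Atp2a2 changed sides with the scaling. The ratio of aged to young was taken on counts divided by each library's total, and a gene needed an average of 20 counts (the floor). That floor left 8 of the 10 genes. Stim1 and Camk2d fell below it. Of the 8, 2 were higher by 2-fold or more, against a background of 27.9% of the 10211 genes above the floor, and none was lower by 2-fold or more, against 10.6%. A count of 2 in 8 is near that background. The ratio was above 0 on the log2 scale for 6 of the 8, against 66.4% of all genes. The median log2 ratio of the 8 was 0.74, and that of all genes 0.43 with quartiles of −0.28 and 1.09.

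**Figure D1:**
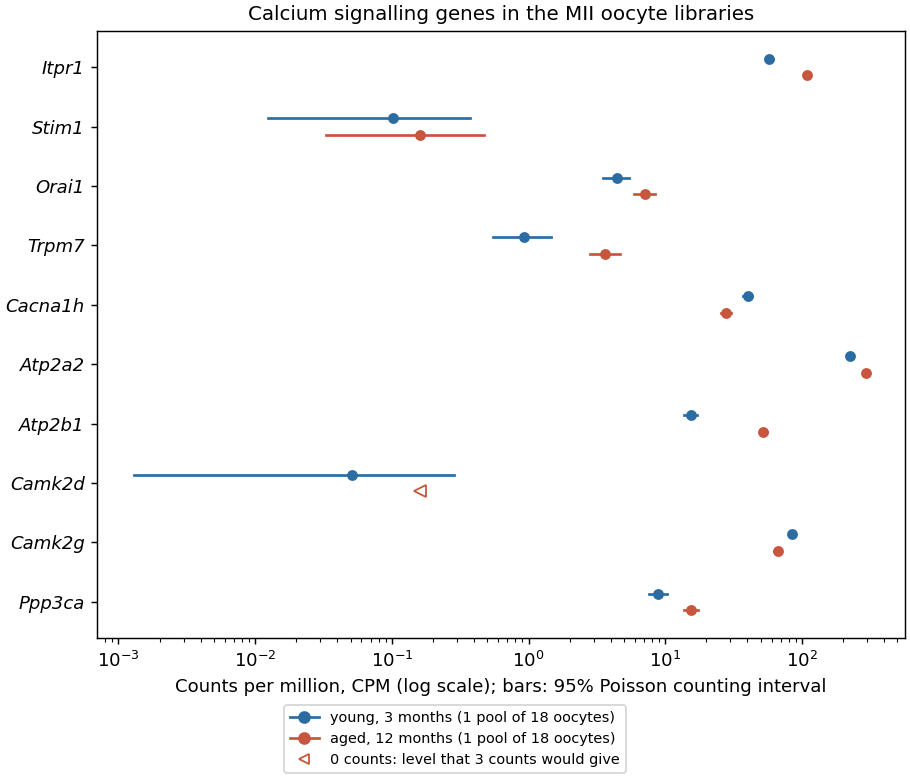
Level of the 10 genes in CPM on a log axis, with a point and a 95% Poisson counting interval for each of the 2 libraries; the open triangle is the level that 3 counts would give where none was counted. Atp2a2 lies highest, at 225 and 296 CPM, and Stim1 and Camk2d lie at or below 0.161 CPM in both libraries.

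Itpr1 (ENSMUSG00000030102, chromosome 6) encodes the type 1 IP3 receptor, the calcium release channel regarded as the main one of mouse eggs. It had 1126 counts, 57.8 CPM, in young oocytes and 2012 counts, 108 CPM, in aged ones. The aged library was 1.87-fold higher, with a 95% exact counting interval of 1.74 to 2.01, which does not include equality. Its log2 ratio of 0.90 lay above 68.7% of all genes and was 0.48 relative to the median gene.

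Stim1 (ENSMUSG00000030987, chromosome 7), the sensor of calcium in the store, was barely counted, with 2 counts in young and 3 in aged oocytes. That is 0.103 and 0.161 CPM, at or under the limit set by 3 counts, so no fold is given. Its paralogue Stim2, also a store sensor, had 50 and 53 counts. The store-operated channel gene Orai1 (ENSMUSG00000049686, chromosome 5), which the sensors open, had 86 counts, 4.42 CPM, in the young library and 132 counts, 7.10 CPM, in the aged one. It was 1.61-fold higher in the aged library (interval 1.22 to 2.13).

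Trpm7 (ENSMUSG00000027365, chromosome 2), a channel for calcium and magnesium fused to a kinase, showed the highest ratio of the 8 genes. It had 18 counts, 0.924 CPM, in the young library and 68 counts, 3.66 CPM, in the aged one. The aged library was 3.96-fold higher, and with so few counts the interval was wide, from 2.33 to 7.07. Its level lay above that of 5.60% of the genes tested when young and of 25.4% when aged. The ratio lay above 93.1% of all genes.

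Cacna1h (ENSMUSG00000024112, chromosome 17), which encodes the T-type voltage-gated channel CaV3.2, was lower in the aged library. It had 782 counts, 40.2 CPM, in the young library and 519 counts, 27.9 CPM, in the aged one. The young level was 1.44-fold above the aged one (interval 1.29 to 1.61), and the log2 ratio of −0.52 lay above 18.5% of all genes. In GENCODE release M21 its exons overlap those of Tpsg1 on the opposite strand, a gene with 145 and 198 counts. The sources used here do not say whether counting used strand, so reads of the overlap cannot be assigned to 1 of the genes. Exons of Itpr1, Orai1 and Atp2a2 overlap opposite-strand annotations too (Gm44040 and Gm44101, Gm2479, and Gm43361), none of which was matched in the table.

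Atp2a2 (ENSMUSG00000029467, chromosome 5) encodes SERCA2, the pump that returns calcium to the endoplasmic reticulum, and was the most abundant of the 10 genes per transcript length, with 50.1 and 66.0 CPM per kb. It had 4379 counts, 225 CPM, in the young library and 5506 counts, 296 CPM, in the aged one. The aged library was 1.32-fold higher (interval 1.27 to 1.37). Relative to the median gene its log2 ratio turned from 0.40 to −0.03. It was 0.02 with TMM, a scaling that trims genes of extreme ratio or level, so its direction is not fixed by these data.

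Atp2b1 (ENSMUSG00000019943, chromosome 10) encodes a plasma membrane pump that expels calcium. It had 299 counts, 15.4 CPM, in the young library and 971 counts, 52.2 CPM, in the aged library. The aged library was 3.40-fold higher (interval 2.98 to 3.88). Its ratio lay above 90.1% of all genes. Together with Trpm7 it was the pair whose counting interval also lay beyond 2-fold, against 18.0% of all genes in that direction. In the other direction there were 0 of the 8, against 6.35% of all genes.

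Camk2g (ENSMUSG00000021820, chromosome 14) encodes the gamma subunit of CaMKII, the form known to drive release from MII arrest in mouse eggs. It had 1660 counts, 85.2 CPM, in the young library and 1239 counts, 66.6 CPM, in the aged one. The young level was 1.28-fold above the aged one (interval 1.19 to 1.38), and the log2 ratio moved from −0.36 to −0.78 when set against the median gene. Camk2d (ENSMUSG00000053819, chromosome 3), for the delta subunit, had 1 count in young and 0 in aged oocytes, and no fold is given. Ppp3ca (ENSMUSG00000028161, chromosome 3), a catalytic subunit of calcineurin, had 173 counts, 8.88 CPM, in the young library and 288 counts, 15.5 CPM, in the aged one. It was 1.74-fold higher in the aged library (interval 1.44 to 2.12).

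The size of the ratios depended on the scaling, and of the 8 genes Atp2a2 alone changed direction. The median gene lay at 0.43 on the log2 scale, and taking that shift from each ratio left Trpm7 at 1.56 and Atp2b1 at 1.34, both still at least 2-fold higher, and Cacna1h at −0.95. The background was then 16.0% of all genes at least 2-fold higher and 17.3% lower. TMM scaling gave 1.61 for Trpm7, 1.39 for Atp2b1 and −0.90 for Cacna1h, and 17.2% of all genes were then 2-fold higher and 16.3% lower. Totals without the 100 most abundant genes also left 2 of the 8 higher and 0 lower, against 19.5% and 14.6% of all genes. Itpr1, Orai1, Ppp3ca, Trpm7 and Atp2b1 stayed above 0 and Camk2g and Cacna1h below 0 under every scaling run: library totals, the median gene, TMM and totals without the 100 most abundant genes.

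**Figure D2:**
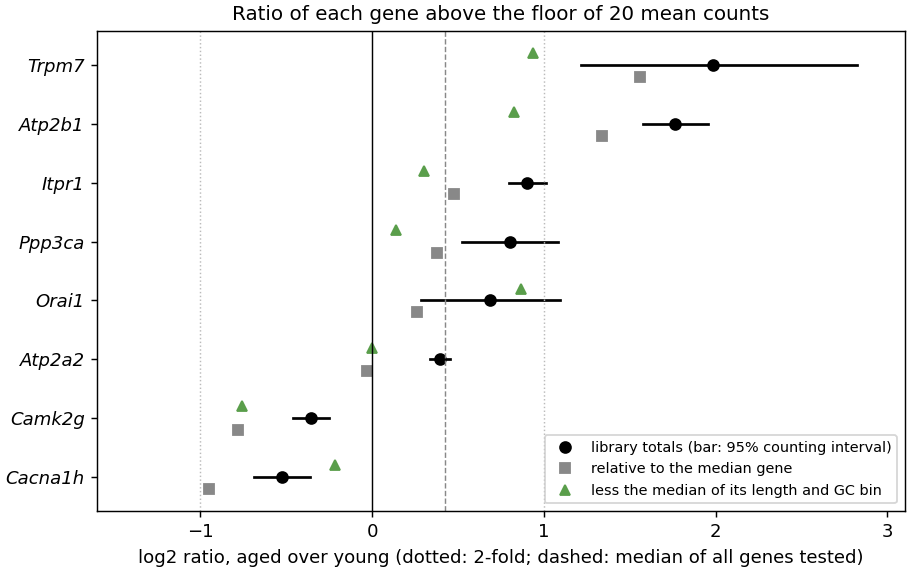
Log2 ratio of aged over young for the 8 genes above the floor: black points with 95% counting intervals are scaled to library totals, squares are relative to the median gene, and triangles are reduced by the median of genes of similar transcript length and GC content. Trpm7 and Atp2b1 lie beyond the 2-fold line with the first 2 and inside it with the third.

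The order of the ratios mostly followed the base composition of the transcripts. Orai1 was out of order: at 58.6% GC its log2 ratio of 0.68 lay above those of Atp2a2 (50.8% GC, 0.40) and Camk2g (51.8% GC, −0.36). Trpm7 and Atp2b1, the genes with the highest ratios, also had the lowest GC content of the 8, 40.1% and 42.6%, and Cacna1h, with the lowest ratio, had the highest, 60.0%. Spearman's rho between GC content and the log2 ratio was −0.90 over the 8 genes and −0.40 over 9902 genes with a transcript in the annotation. Over the 61 other calcium genes above the floor, described below, it was −0.46. It is a description across genes, which share both libraries and are not replicates. When each ratio was set against the median of genes of like transcript length and GC content, Trpm7 stood at 0.94, Orai1 at 0.87, Atp2b1 at 0.82, Itpr1 at 0.30, Ppp3ca at 0.14, Atp2a2 at 0.00, Cacna1h at −0.22 and Camk2g at −0.76. None of the 8 was then at least 2-fold apart, against 13.6% of 9902 genes higher and 14.9% lower. Compared with library totals, the correction raised the values of the 2 genes richest in GC, Cacna1h and Orai1 (58.6%), and lowered those of the other 6. It also takes out the shift shared by all genes. Compared with values relative to the median gene, it lowered Trpm7 (from 1.56), Atp2b1 (1.34), Itpr1 (0.48) and Ppp3ca (0.38). It raised Cacna1h (from −0.95) and Orai1 (0.26), and hardly moved Atp2a2 (−0.03) and Camk2g (−0.78).

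**Figure D3:**
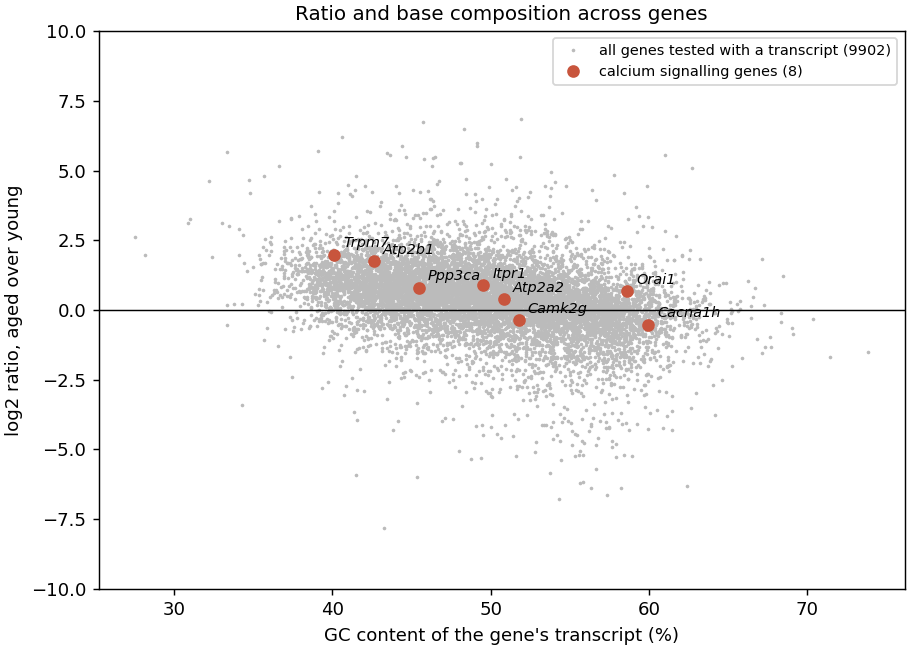
Log2 ratio of aged over young against the GC content of the transcript, with 1 grey dot for each of 9902 genes and the 8 calcium signalling genes named. Trpm7 at 40.1% GC has the highest ratio of the 8 and Cacna1h at 60.0% the lowest.

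Per kb of transcript, the order of levels in young oocytes was Atp2a2, Camk2g (23.0 CPM per kb), Itpr1 (5.86), Cacna1h (4.88), Orai1 (2.36), Atp2b1 (2.15), Ppp3ca (1.87) and Trpm7 (0.130). In aged oocytes Atp2b1 had 7.32 CPM per kb, behind Atp2a2, Camk2g (18.0) and Itpr1 (10.96), and was followed by Orai1 (3.79), Cacna1h (3.39), Ppp3ca (3.25) and Trpm7 (0.514). The spread between animals is unknown, so which neighbours in these orders differ beyond it cannot be said.

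Within their families, the genes differed in how much of the family's RNA they made up. Folds between different genes are given here on CPM per kb of transcript, which assumes reads along the whole annotated transcript. Percentages in the text below are shares of the family's counts, not scaled to length. The plot of family shares draws them per kb, so its values differ. Per kb, the young and aged shares were 62.5% and 83.7% for Atp2b1, 80.3% and 71.5% for Cacna1h and 63.9% and 51.4% for Ppp3ca. The family sequences are mostly distinct at short range: the longest identical run of coding bases was 23 between Camk2g and Camk2d, 28 between Itpr1 and Itpr2 and 26 between Atp2b1 and Atp2b4. The run that Camk2g shares with Camk2d, at positions 1234 to 1256 of the Camk2g coding sequence and 1081 to 1103 of Camk2d, is shown because it is the longest stretch in which these coding sequences are the same:
Camk2g and Camk2d: ATCAACAATGGGGACTTTGAGGC
Longer runs joined Cacna1h and Cacna1i, with 50 bases, and Atp2a2 and Atp2a3, with 44 bases, and reads inside those runs could be assigned to either gene.

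Among the IP3 receptors, Itpr2 and not Itpr1 held most of the counts. Itpr2, the type 2 receptor, had 38933 counts in young and 53478 in aged oocytes, and its level per kb was 29.2-fold and 22.5-fold above that of Itpr1. Itpr1 made up 2.80% of the receptor counts in the young library (95% exact binomial interval 2.64% to 2.97%) and 3.62% in the aged one (3.47% to 3.78%). No other gene's exons overlap those of Itpr2 in GENCODE release M21. Itpr3 had 135 and 88 counts.

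CaMKII was represented by Camk2g almost alone, with 99.8% of the family's 1664 counts when young and 99.8% of 1241 when aged. Camk2b, the beta subunit gene, had 3 and 2 counts, and Camk2a has no count in the table. SERCA2 was similarly alone among the store pumps, since Atp2a3 had 0 and 1 counts and Atp2a1 has none in the table.

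The plasma membrane pumps showed the largest shift in makeup of the families compared. Atp2b1 made up 52.6% of their 568 counts in the young library (48.4% to 56.8%) and 76.2% of 1274 in the aged one (73.8% to 78.5%), and these counting intervals do not overlap. Atp2b4, another pump of this family, had 245 and 289 counts, so that Atp2b1 per kb was 2.01-fold above it in young and 5.53-fold in aged oocytes. Their GC contents were 42.6% for Atp2b1 and 47.8% for Atp2b4.

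Orai3 exceeded Orai1 in both libraries, by 2.53-fold and 2.39-fold per kb, with 248 and 360 counts. The share of Orai1 was 25.7% and 26.8%, with overlapping intervals. Of the T-type channels, Cacna1h held 77.4% of the counts in the young library (74.7% to 80.0%) and 67.8% in the aged one (64.4% to 71.1%), the rest being Cacna1i with 228 and 246 counts. Ppp3ca held 70.3% of the calcineurin catalytic counts in the young library (64.2% to 76.0%) and 58.2% in the aged one (53.7% to 62.6%), and Ppp3cb, another catalytic subunit gene, had 67 and 194 counts. GC contents were 45.4% for Ppp3ca and 39.8% for Ppp3cb. Their log2 ratios were 0.80 and 1.60, and 0.14 and 0.51 after the correction for length and GC content.

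**Figure D4:**
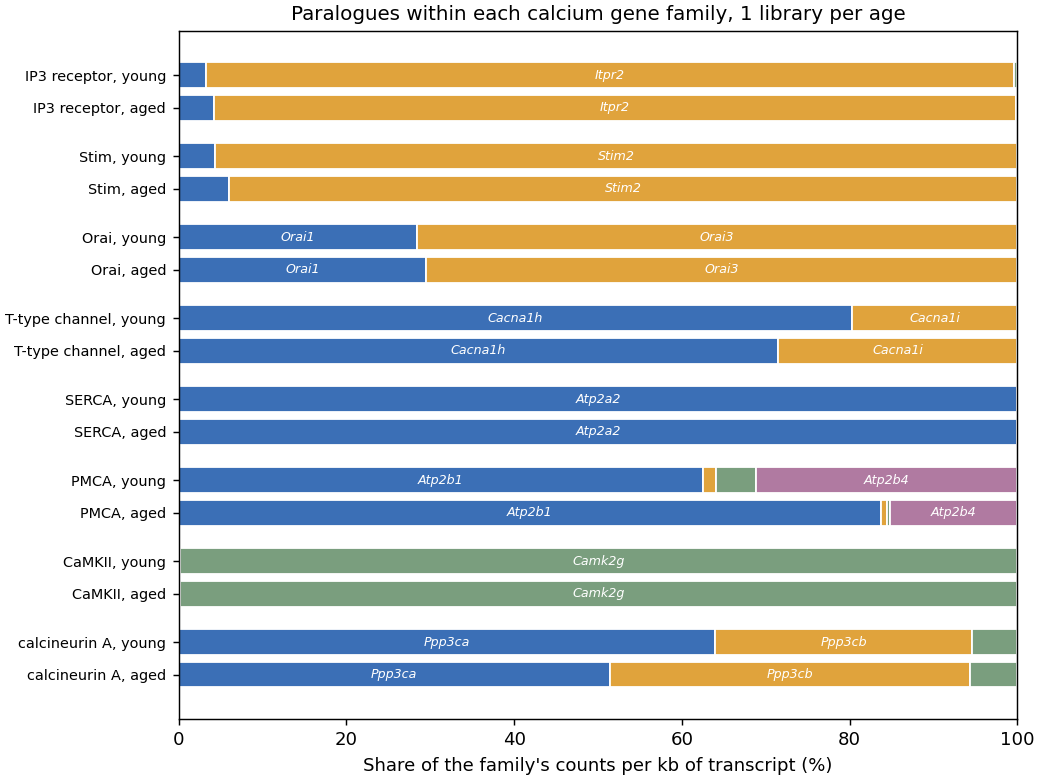
Share of each paralogue in its family's counts per kb of transcript, in percent, with 1 bar per library; colours follow the alphabetical order of the gene names within a family, and genes without counts in the table are left out. Itpr2, Stim2, Atp2a2 and Camk2g fill most of their bars at both ages, and the Atp2b1 part is longer in the aged bar.

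The wider pathway was described with 10 lists holding 97 other calcium genes, of which 80 had counts and 61 lay above the floor. Higher by 2-fold or more in aged oocytes were 14 of the 61 (23.0%), and lower 6 (9.84%), near the background of 27.9% and 10.6%. Their median log2 ratio was 0.51. Set against the median gene it was 0.09, with 6 genes higher and 10 lower, and with the correction for length and GC content it was −0.06, with 6 higher and 11 lower. The counts per list below are for library totals unless another scaling is named, and are to be read against the same background.

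Upstream of the receptor, genes of phospholipase C and IP3 metabolism had 10 members above the floor, with 2 higher and 1 lower. Relative to the median gene there were 1 and 2, with Plcg2 at 0.66 and Plcb3 at −1.10. After the correction for length and GC content there were again 2 and 1, with Plcg2 at 1.12 and Plcb3 at −0.70. Plce1, a Ras-regulated phospholipase C, was 3.55-fold higher in the aged library (345 and 1170 counts) and Plcg2 2.12-fold higher (193 and 390 counts). Plcg1, its close relative, had 79 and 18 counts, 4.19-fold lower (interval 2.49 to 7.43). These 2 gamma-type phospholipase C genes therefore lay on opposite sides, and did so under each scaling. Of 3 other IP3 and ryanodine receptor genes none was 2-fold apart. Itpr2 had a log2 ratio of 0.52, which was 0.10 relative to the median gene and −0.08 after the correction for length and GC content. Ryr3 had 20 and 32 counts, and Itpr3 was 1.47-fold lower.

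Among 4 other channel and sensor genes, Trpv3, a calcium-permeable channel of the oocyte, was the 1 gene at least 2-fold higher, 3.71-fold with 11 and 39 counts (interval 1.86 to 8.04). Orai3 was 1.52-fold higher, at log2 values of 0.18 relative to the median gene and 0.72 after the correction for length and GC content. The ratio of Cacna1i was 1.13, with an interval of 0.940 to 1.36 that includes equality, and its log2 value turned to −0.25 relative to the median gene. Of 3 other pump genes Atp2c2, a calcium and manganese pump of the secretory pathway, was 3.90-fold lower (49 and 12 counts). Its relative Atp2c1 had 2602 and 4796 counts. The log2 ratio of Atp2c1 was 0.95, or 0.52 relative to the median gene, and turned to −0.06 after the correction. That of Atp2b4 was 0.30, and turned to −0.12 relative to the median gene and −0.39 after the correction. The 6 further pump and exchanger genes with counts lay below the floor, among them the sodium-calcium exchanger genes Slc8a1 with 0 and 5 counts, Slc8a2 with 6 and 0 and Slc8a3 with 5 and 0, named after their values were seen.

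Calcium binding proteins of the endoplasmic reticulum had a median of 1.06, and 0.63 relative to the median gene, the highest of the 10 lists on both scales. After the correction for length and GC content the median was 0.42, below the 0.60 of the other channel and sensor genes. The list has 8 genes above the floor, with 4 higher and 1 lower by 2-fold or more, or 2 and 1 relative to the median gene and 1 and 1 after the correction. Pdia3, a disulfide isomerase that works with calreticulin, was 4.73-fold higher (33 and 149 counts) and Calu, calumenin, 3.04-fold higher (280 and 813 counts). Calr, which encodes the store's calcium buffer calreticulin, was 2.89-fold lower, with 611 and 202 counts (interval 2.46 to 3.40). Calr thus lay opposite to Pdia3, also after the correction for length and GC content, with log2 values of −1.81 and 1.58.

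Mitochondrial uptake genes were mostly within 2-fold, with 1 of 7 higher, and 0 relative to the median gene or after the correction for length and GC content. Mcub, a subunit that dampens the uniporter, was 2.14-fold higher (2593 and 5294 counts), at log2 values of 0.67 and 0.94 on those scales. Vdac1, the outer membrane channel, was 1.93-fold and Letm1 1.44-fold higher. Relative to the median gene their log2 values were 0.52 and 0.10, and after the correction 0.47 and 0.33.

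Of 7 calmodulin and kinase genes beside Camk2g, 2 were higher and 1 lower, or 1 and 1 relative to the median gene, where Mylk stood at 0.77. After the correction for length and GC content there were 2 and 2, with Mylk at 1.15. Camkk2, a kinase that activates other calmodulin-dependent kinases, was 3.29-fold higher (41 and 129 counts), and Mylk, myosin light chain kinase, 2.28-fold higher (22 and 48 counts). Calm3, 1 of the calmodulin genes, was 2.97-fold lower (87 and 28 counts). Calcineurin genes beside Ppp3ca had 2 of 5 higher and none lower with library totals, but 1 higher and 2 lower relative to the median gene and 0 higher and 1 lower after the correction for length and GC content. The 2 higher genes were Ppp3cb, 3.03-fold higher, and the regulatory subunit gene Ppp3r1, 2.20-fold higher with 848 and 1783 counts, at log2 values of 1.17 and 0.71 relative to the median gene and of 0.51 and 0.20 after the correction. The inhibitor gene Rcan3 was 1.90-fold lower (21047 and 10557 counts), at −1.35 relative to the median gene and −1.33 after the correction. Cabin1, which encodes another calcineurin inhibitor, stood at −1.09 relative to the median gene.

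Protein kinase C genes had 1 of 5 at least 2-fold lower and none higher, or 2 and 0 after the correction, where Prkci stood at −1.10. Prkcd had 33 and 7 counts, 4.50-fold lower (interval 1.96 to 12.1), while Prkcb was 1.86-fold higher (interval 1.18 to 2.99). The ratio of Prkcz was 1.47, with an interval of 0.915 to 2.39 that includes equality. Among 9 genes that act at exit from MII arrest or in cortical granule release, 2 were higher and 1 lower with library totals, but 0 higher and 2 lower relative to the median gene and 0 higher and 3 lower after the correction for length and GC content. Wee2, a kinase that inhibits Cdk1 at egg activation, was 2.46-fold higher (5314 and 12475 counts), and Vamp3, a vesicle fusion protein, 2.47-fold higher (453 and 1070 counts). Napa, which helps to recycle fusion complexes, was 2.54-fold lower (165 and 62 counts). Wee2 and Vamp3 were within 2-fold relative to the median gene, at 0.87 and 0.88, while Astl, a protease of the cortical granules, stood at −1.34. After the correction the 3 lower genes were Fbxo43, which encodes Emi2, at −1.57, Napa at −1.23 and Astl at −1.08. Plcb3, Cabin1, Prkci, Astl and Fbxo43 are named here after their values were seen.

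**Figure D5:**
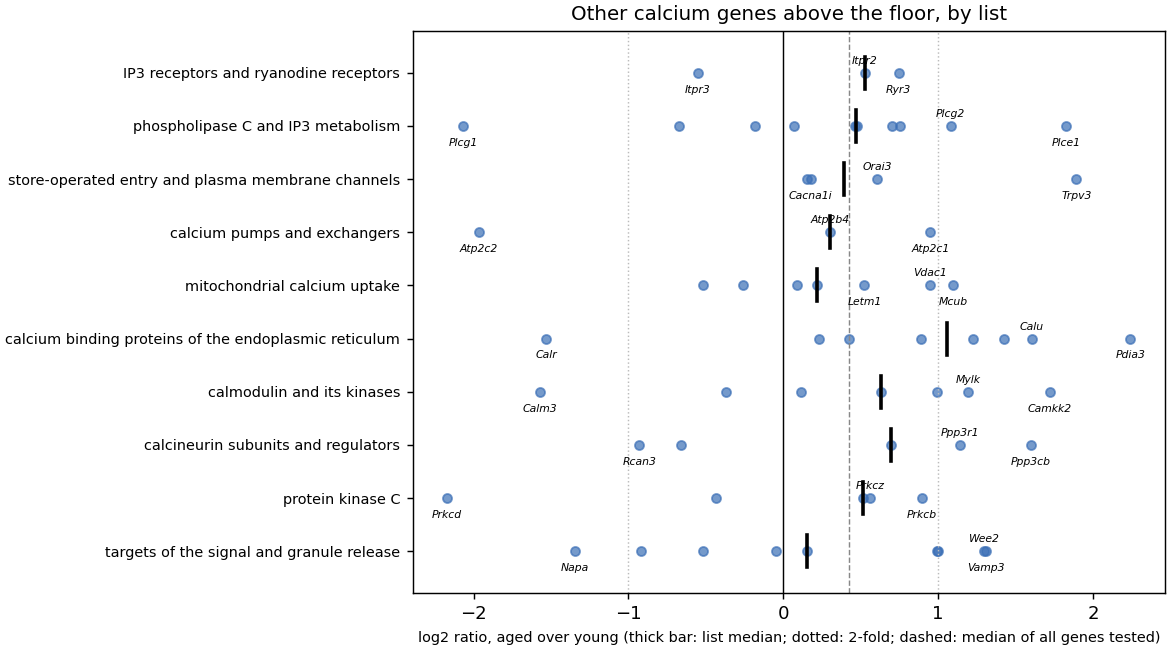
Log2 ratio of aged over young for 61 other calcium genes above the floor, with 1 dot per gene in 10 lists, the list median as a thick bar, and up to 3 genes per list named. The list of calcium binding proteins of the endoplasmic reticulum has the highest median on this scale, 1.06, with Calr at −1.53 and Pdia3 at 2.24 at its ends.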

How the data were processed

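RNA was measured in 1 young and 1 aged pool of oocytes, sequenced on a SOLiD instrument per the labels' protocols. Values are whole-number counts per Ensembl gene as deposited by the authors, not normalized. The genome build was mm9 per the submitters' processing notes, and the sources used here do not name the aligner, counter or annotation or say whether strand was used. The PCR had no molecular identifiers, and reads can be copies of 1 molecule. The counting intervals take each read as separate, so they are too narrow where reads are copies. Symbols came from GENCODE mouse release M21, which matched 93.7% of the counted genes. Its build is not mm9, and coordinates are therefore left out. Chromosomes are those of the table.

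Ratios were computed after scaling to library totals, where the libraries averaged 20 counts or more, and called at 2-fold. Intervals are 95% exact (Clopper-Pearson) intervals, from the part of each gene's counts that was aged, or exact Poisson intervals for levels. A gene with 3 counts or fewer in both libraries got no ratio. The correction for length and GC content used 10 bins of each. It took the median of a gene's bin from the ratio on library totals, which also removes the shift shared by all genes. The ratio and interval code was tested on simulated data. The tools were pandas 2.3.3, numpy 2.4.6, matplotlib 3.10.9 and scipy 1.17.1 in Python 3.11.15, with edgeR 4.0.16 in R 4.3.3 for TMM factors alone. Members and lists were chosen with earlier results of these data known. Named are all 10 genes, up to 3 other genes per list with the largest difference above the floor, and paralogues of the 10 genes, added after their values were seen.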

Additional observations from a re-analysis of the deposited data

How the results depend on the processing

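Members higher by 2-fold or more in aged oocytes, Trpm7 and Atp2b1, numbered 2 under library totals, the median gene, TMM, totals without the 100 most abundant genes, 5 counts added, no floor and the interval rule. With a floor of 100 counts there was 1, since Trpm7 was no longer included, and with the correction for length and GC content there were 0. No member was at least 2-fold lower under any of these settings. The members' median log2 ratio of 0.74 became 0.32 relative to the median gene, 0.37 with TMM and 0.22 with length and GC bins. Of the other calcium genes, 14 were higher with library totals. There were 6 relative to the median gene, 7 with TMM, 9 without the most abundant genes and 6 with length and GC bins. The 6 lower genes became 10 relative to the median gene, 10 with TMM, 10 with no floor, 2 with a floor of 100 counts, 11 with length and GC bins and 3 with the interval rule. Relative to the median gene Atp2a2 alone among the 8 changed sign. No paired analysis was possible because each age has 1 library. Leaving out a library was not possible for the same reason. Depth limits Stim1 and Camk2d, whose levels are at or under that of 3 counts.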
